A study of Mus musculus with 12 samples.

Results

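The passage of mutant EPOP cells out of the naive state was measured by setting mutant epiblast-like cells (EpiLCs) against mutant mouse embryonic stem cells (mESCs). The members were the libraries whose genotype label gives mutant EPOP, 3 of EpiLCs and 3 of mESCs, which made 6 of the 12 libraries of the series. The other 6 came from cells with WT EPOP, 3 of EpiLCs and 3 of mESCs, and served as the parallel step. All cells derive from E14, a mouse embryonic stem cell line, and in both genotypes EPOP had been put back by re-expression, so mutant and WT cells share that treatment. The sources used here do not describe the mutation, and the cells before re-expression were not analysed here.

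The mutant EpiLCs had been plated on human fibronectin in N2B27 medium with activin A at 20 ng/ml, bFGF at 12 ng/ml and 1% KSR, a serum replacement. The mutant mESCs had been grown on gelatin with LIF, 1 µM PD0325901, an inhibitor of the kinase MEK, and 3 µM CHIR99021, an inhibitor of the kinase GSK3. The WT EpiLCs and WT mESCs were kept in the same media as their mutant counterparts. Whether replicates were separate cultures or clones is not stated, so each p-value reflects the spread of these particular libraries, and that spread may be technical. The headings of the mutant columns in the count table are coded, and with no key in the labels these columns were taken as mutant because WT and mutant are the genotypes named.

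Naive mESCs resemble the inner cell mass of the blastocyst before implantation, and a circuit of transcription factors that includes Esrrb, Klf4, Tfcp2l1 and Nanog holds them there while MEK and GSK3 are inhibited. When the inhibitors and LIF are withdrawn and FGF and activin are given, that circuit is dismantled, Otx2 and Pou3f1 rise, the de novo DNA methyltransferases are induced, and the cells come to resemble the epiblast just after implantation, able to form all germ layers and primordial germ cells. EPOP binds Polycomb repressive complex 2 (PRC2), which methylates histone H3 at silent developmental genes such as the Hox clusters, and it also binds Elongin BC, a pair of proteins linked to active transcription.

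Libraries of mutant EpiLCs held 10652151, 8218527 and 8673893 counts, and those of mutant mESCs held 9137864, 9751214 and 9071935, within the range of 7714164 to 10652151 over all 12. The first principal component separated EpiLCs from mESCs and carried 79.54% of the variance, and the second carried 6.452%. Among 10790 genes with at least 5 CPM, counts scaled to a common library size, the median within-group SD of log2 CPM was 0.0859 in mutant EpiLCs and 0.0877 in mutant mESCs. Of 19630 named genes, 13879 passed the filter on low counts and were tested. A gene that passed only through the state in which it is high had to differ, so counts over the tested members of a list describe that list and no more.

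Epop itself (listed as E130012A19Rik, GRCm38 chromosome 11, 97627389 to 97629702) was measured at 207.2, 215.7 and 196.9 CPM in mutant EpiLCs, against 461.8, 473.6 and 470.7 CPM in mutant mESCs. The 3 EpiLC libraries all lay below the 3 mESC libraries, and the log2 fold change was -1.18 ± 0.04 (SE, adjusted p = 1.8e-54, edgeR quasi-likelihood test with Benjamini-Hochberg adjustment over all tested genes). WT EpiLCs held 208.8 ± 3.34 CPM and WT mESCs held 472.9 ± 10.8 CPM (SD, n = 3 each), and the difference between the mutant and the WT change was -0.00 ± 0.06 (SE, adjusted p = 0.99, edgeR). The counts do not separate re-expressed from endogenous Epop transcripts, so the level checks neither genotype label.

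In mutant cells 9155 of the 13879 tested genes changed at an adjusted p under 0.05 (66.0%), 4631 of them higher in EpiLCs (33.4%) and 4524 lower (32.6%). Without mutant mESC replicate 1 the balance turned, with 4371 higher and 4444 lower. With a change of at least 2-fold as well, 3478 genes were called (25.1%), 2035 higher (14.7%) and 1443 lower (10.4%). The shares of 33.4% higher and 32.6% lower are the background for the counts of each gene list below. Rises outnumbered falls more at larger sizes: 1012 genes rose and 634 fell at least 4-fold, 532 and 296 at least 8-fold, and 290 and 149 at least 16-fold. The 3 EpiLC and 3 mESC libraries did not overlap for 9453 of all tested genes (68.1%). The median log2 fold change over all tested genes was 0.001, and it was 0.009 with relative log expression scaling and 0.025 with no composition scaling. The libraries are bulk RNA, so fewer cells of a type and less RNA per cell cannot be told apart in any change below.

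The naive transcription factors fell together. All 16 listed factors were tested, 0 rose and 16 fell, each by more than 2-fold, with a median log2 fold change of -4.10 against 0.001 over all tested genes. Their summed level was 413.9 to 419.5 CPM in mutant EpiLC libraries and 5538 to 5622 CPM in mutant mESC libraries.

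Tfcp2l1, a factor of the LIF and WNT arms of the naive circuit, stood at 18.2, 16.6 and 17.9 CPM in mutant EpiLCs, against 991, 987 and 977.5 CPM in mutant mESCs, a log2 fold change of -5.81 ± 0.06 (SE, adjusted p = 2.63e-119, edgeR). Klf4, a Krüppel-like factor used in reprogramming, stood at 7.501, 6.208 and 9.289 CPM in EpiLCs, against 386.6, 407.6 and 410.2 CPM in mESCs (log2 fold change -5.71 ± 0.07). Both factors were low in every EpiLC library and high in every mESC library, with no overlap. Esrrb, an orphan nuclear receptor, stood at 25.4, 22.0 and 19.8 CPM in EpiLCs, against 906.1, 950.4 and 922.2 CPM in mESCs (log2 fold change -5.36 ± 0.06). Prdm14, which restrains FGF signalling and the DNA methyltransferases, stood at 0.188, 0.244 and 0 CPM in EpiLCs, against 52.5, 44.8 and 46.7 CPM in mESCs. Prdm14 was thus close to the limit of detection in every EpiLC library, and its log2 fold change was -8.24 ± 0.25.

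Zfp42, also called Rex1 and widely used as the marker of the naive state, kept 68.0, 66.3 and 57.6 CPM in mutant EpiLCs, against 901, 896.8 and 881.1 CPM in mutant mESCs, with a log2 fold change of -3.80 ± 0.05. Nanog, which is shared by both pluripotent states, held 171.6, 178.1 and 178.1 CPM, against 912.3, 917.1 and 876.4 CPM in mESCs (log2 fold change -2.36). Klf2 stood at 33.38, 38.59 and 37.96 CPM in EpiLCs, against 413.6, 412.4 and 416 CPM in mESCs. The EpiLC libraries of these 3 genes lay below all mESC libraries, and all 3 genes stayed well detected in EpiLCs. Tbx3, a T-box factor, had a larger fall, with 4.88, 4.99 and 5.62 CPM in EpiLCs, against 313.3, 327.5 and 333.6 CPM in mESCs.

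Among other naive genes, 31 were tested, 3 rose and 25 fell, 21 of them by at least 2-fold. Tdh, threonine dehydrogenase, on which mESC metabolism depends, held 8.814, 13.02 and 12.16 CPM in mutant EpiLCs, against 685.5, 695.2 and 697.4 CPM in mutant mESCs. Khdc3, an oocyte and early embryo gene, fell by 6.41 on the log2 scale, and Spp1, which encodes osteopontin, fell by 4.65. The 3 that rose were Aire, Dppa4 and Dppa2, with log2 fold changes of 4.10, 0.26 and 0.19. Aire shares exon sequence with Dnmt3l, which also rose, and reads of the pair cannot be told apart without strand. Dppa3, a naive and germ cell gene, was low in both states (0.948 CPM in EpiLCs and 0.545 CPM in mESCs, adjusted p = 0.27, edgeR).

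The core pluripotency genes Pou5f1 and Sox2 were both lower. Pou5f1, which encodes OCT4, stood at 870.4, 857.7 and 874.6 CPM in mutant EpiLCs, against 1176, 1183 and 1156 CPM in mutant mESCs, a log2 fold change of -0.43 ± 0.03 (adjusted p = 3.25e-23, edgeR). Sox2, its partner on DNA, stood at 90.5, 94.3 and 98.7 CPM in EpiLCs, against 371.7, 388.3 and 383.4 CPM in mESCs, a log2 fold change of -2.01 ± 0.05. Neither gene's groups overlapped, and the Sox2 change was the larger of the pair. Per transcript length, Pou5f1 averaged 1268 TPM, a scale that divides by transcript length, in EpiLCs and 1620 TPM in mESCs, and Sox2 averaged 81.2 TPM in EpiLCs and 309.7 TPM in mESCs. Of 17 listed general pluripotency genes, 7 rose and 8 fell, 2 each way by at least 2-fold, and Lin28a, an RNA-binding protein that blocks let-7 processing, rose to 496.2, 507.8 and 485.2 CPM in EpiLCs, against 154.4, 161.1 and 154.3 CPM in mESCs.

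**Figure D1:**
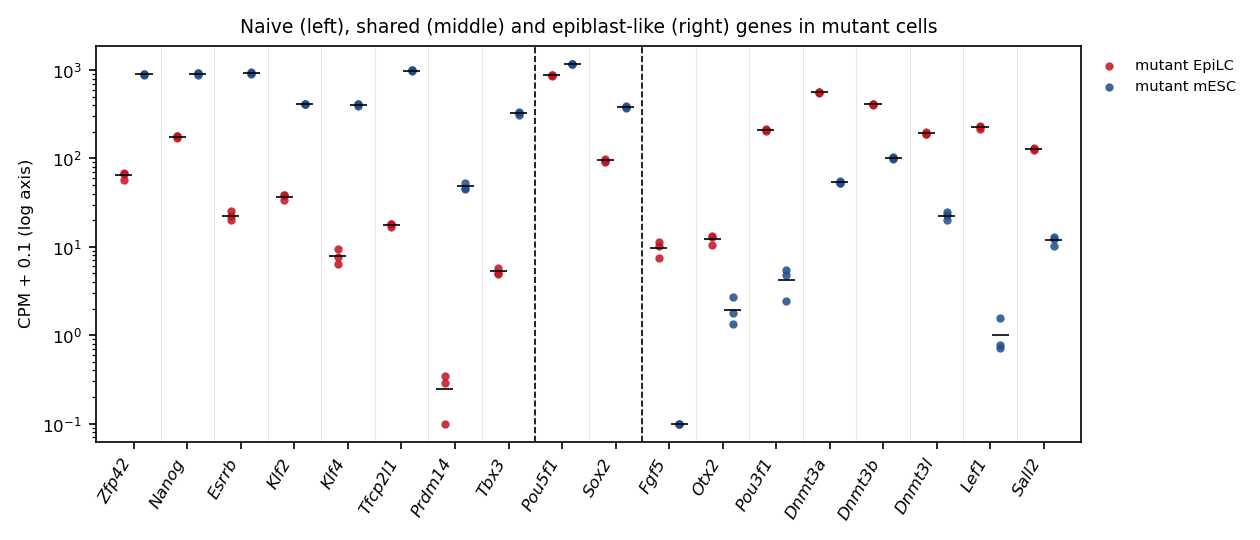
CPM on a log axis for 18 state genes in each library of mutant EpiLCs (left of each pair) and mutant mESCs (right), with 0.1 added to each value, points for libraries, short lines for group means and dashed lines between naive, shared and epiblast-like genes. Tfcp2l1 lies at 16.6 to 18.2 CPM in mutant EpiLCs and 977.5 to 991 CPM in mutant mESCs, while Pou5f1 lies at 857.7 to 874.6 CPM in mutant EpiLCs and 1156 to 1183 CPM in mutant mESCs.

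The transcription factors of the formative epiblast mostly moved the other way. Of 25 tested, 21 rose and 4 fell, with 18 rises and 2 falls of at least 2-fold and a median log2 fold change of 2.18. Pou3f1, also called Oct6, stood at 215.9, 211.8 and 204.7 CPM in mutant EpiLCs, against 2.34, 5.31 and 4.68 CPM in mutant mESCs, a log2 fold change of 5.67 ± 0.10 (adjusted p = 4.65e-87, edgeR). Lef1, a nuclear partner of beta-catenin, stood at 212.8, 230.8 and 229.1 CPM in EpiLCs, against 1.45, 0.625 and 0.668 CPM in mESCs (7.93 ± 0.12). Both were near absent from every mESC library and abundant in every EpiLC library. Otx2, a homeodomain factor that directs OCT4 to new enhancers in the primed state, had low levels in both, 12.7, 10.4 and 13.2 CPM in EpiLCs and 1.67, 2.60 and 1.23 CPM in mESCs. Its log2 fold change was 2.70 ± 0.23 without overlap of the groups, and its exons overlap those of the antisense gene Otx2os1. Sall2, a zinc finger factor, stood at 129.7, 126.2 and 123.6 CPM in EpiLCs, against 12.2, 10.1 and 12.8 CPM in mESCs.

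Among the SOX family, Sox3, Sox4 and Sox11 rose by 4.28, 4.08 and 3.80 on the log2 scale. Myc, a growth regulator, held 133.5, 128.8 and 140.4 CPM in mutant EpiLCs, against 37.1, 34.1 and 33.0 CPM in mutant mESCs. The 4 factors of this list that fell included Tcf7l1, a repressor of WNT targets (log2 fold change -1.41), Foxd3 (-1.18) and the ETS factor Etv5 (-0.54). Of 34 other formative genes 21 rose and 9 fell, 18 and 6 of them by at least 2-fold. Fgf5 and Wnt8a, described next, were both among the rises, and the genes that fell are not described. Fgf5, the ligand that defines the early epiblast, held 11.3, 7.43 and 10.1 CPM in EpiLCs and no count in the 3 mESC libraries, so it was at least 89.6-fold higher, where the bound takes 3 counts over the mESC group. Wnt8a, a WNT ligand of the early epiblast, held 25.7, 26.1 and 23.7 CPM in EpiLCs, against 0.223, 0 and 0 CPM in mESCs.

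The promoters of 4 of these state genes are shown because the genes had the largest rises and falls among those with a single start in the RefSeq table (GRCm38.p6): Fgf5 and Dnmt3b, which rose, and Tfcp2l1 and Klf4, which fell. Each is the 250 bases before the RefSeq start, 5′ to 3′ on the strand of the gene, and capitals mark every CG, the dinucleotide that the de novo methyltransferases modify.
Fgf5: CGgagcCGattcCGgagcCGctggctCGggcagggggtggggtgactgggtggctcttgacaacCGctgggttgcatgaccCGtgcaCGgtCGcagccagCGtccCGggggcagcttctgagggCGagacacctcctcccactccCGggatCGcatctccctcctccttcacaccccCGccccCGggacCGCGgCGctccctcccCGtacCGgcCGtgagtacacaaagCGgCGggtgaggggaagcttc
Dnmt3b: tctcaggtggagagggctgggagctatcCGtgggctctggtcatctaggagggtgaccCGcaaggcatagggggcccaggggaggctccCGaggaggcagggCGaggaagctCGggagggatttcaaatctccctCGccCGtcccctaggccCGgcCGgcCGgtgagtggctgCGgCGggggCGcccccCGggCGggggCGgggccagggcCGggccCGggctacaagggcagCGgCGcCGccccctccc
Tfcp2l1: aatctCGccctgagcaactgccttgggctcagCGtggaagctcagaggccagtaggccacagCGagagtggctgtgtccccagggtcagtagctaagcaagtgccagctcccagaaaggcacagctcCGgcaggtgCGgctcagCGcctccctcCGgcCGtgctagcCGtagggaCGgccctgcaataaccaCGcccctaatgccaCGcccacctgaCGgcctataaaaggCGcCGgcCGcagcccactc
Klf4: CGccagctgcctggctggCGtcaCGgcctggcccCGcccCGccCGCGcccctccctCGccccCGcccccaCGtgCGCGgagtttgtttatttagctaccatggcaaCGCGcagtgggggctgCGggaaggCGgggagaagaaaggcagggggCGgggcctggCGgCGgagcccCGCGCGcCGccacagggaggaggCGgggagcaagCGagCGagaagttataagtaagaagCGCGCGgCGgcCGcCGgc

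These windows lie at chr5:98253934-98254183 on the plus strand for Fgf5, chr2:153649199-153649448 on the plus strand for Dnmt3b, chr1:118627695-118627944 on the plus strand for Tfcp2l1 and chr4:55532476-55532725 on the minus strand for Klf4. They hold 24, 21, 16 and 32 CG in the order Fgf5, Dnmt3b, Tfcp2l1 and Klf4. Across 32851 windows of the same length in the table the median was 6 CG, the quartiles were 2 and 16, and 92.1% held at least 1 CG. Windows with as many CG or fewer made up 89.3% for Fgf5, 85.2% for Dnmt3b, 76.5% for Tfcp2l1 and 96.0% for Klf4. CG content describes the windows alone, and methylation was not measured here.

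The de novo methyltransferase genes rose. Dnmt3a stood at 567.9, 565.5 and 546.1 CPM in mutant EpiLCs, against 55.4, 52.7 and 52.7 CPM in mutant mESCs, a log2 fold change of 3.38 ± 0.05 (adjusted p = 2.44e-98, edgeR). Dnmt3b stood at 416.4, 397.2 and 412.8 CPM in EpiLCs, against 99.5, 103.1 and 100.9 CPM in mESCs. Dnmt3l, their catalytically inactive cofactor, stood at 188.7, 197.3 and 187.6 CPM in EpiLCs, against 20.0, 22.8 and 24.4 CPM in mESCs. All 3 genes were higher in every EpiLC library, with the caution that Dnmt3a overlaps Dnmt3aos and Dnmt3l overlaps Aire. Dnmt1, which maintains methylation after replication, was slightly lower (log2 fold change -0.33), as was its guide Uhrf1 (-0.57).

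The TET dioxygenases, which oxidise methylcytosine, split. Tet1 and Tet2 fell, by 0.70 and 1.48 on the log2 scale, and Tet3 rose by 2.07. Tet3 held 65.3, 67.3 and 71.3 CPM in mutant EpiLCs, against 16.02, 14.06 and 18.38 CPM in mutant mESCs, and Tet2 held 76.4, 72.7 and 87.3 CPM in EpiLCs, against 204.2, 220.1 and 232.9 CPM in mESCs. Zfp57, a zinc finger protein that keeps methylation at imprints, fell by 1.35 on the log2 scale. Over the 20 listed DNA methylation genes 8 rose and 10 fell.

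Targets and feedback inhibitors of the ERK pathway, which MEK drives, rose in part. Of 26 tested, 15 rose and 9 fell, and the median log2 fold change was 0.46. Dusp4, a phosphatase of ERK, stood at 227.4, 225.3 and 216.9 CPM in mutant EpiLCs, against 5.67, 3.75 and 4.01 CPM in mutant mESCs (log2 fold change 5.64). Dusp6, another ERK phosphatase, stood at 236, 239.6 and 241.5 CPM in EpiLCs, against 35.0, 30.7 and 29.7 CPM in mESCs, and the Sprouty inhibitor Spry4 at 64.1, 55.9 and 68.2 CPM in EpiLCs, against 15.7, 21.7 and 23.0 CPM in mESCs. The 4 immediate early genes named here lay the other way round. Egr1 stood at 42.8, 47.2 and 54.5 CPM in EpiLCs, against 881, 920.5 and 948.7 CPM in mESCs (log2 fold change -4.26), and Egr2, Junb and Fos fell by 2.85, 2.53 and 2.28 on the log2 scale. Junb overlaps Prdx2.

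Of the FGF genes 19 of 20 listed were tested, 12 rose and 5 fell, with 10 rises and 3 falls of at least 2-fold. By DESeq2 3 fell, as also without replicate 1 of the mutant EpiLCs or of the mutant mESCs. Besides Fgf5, the receptor Fgfr2 rose to 32.7, 26.8 and 32.8 CPM in mutant EpiLCs, against 0.890, 1.46 and 1.00 CPM in mutant mESCs (its exons overlap Ctbp2), and Fgfr1 held 311.7, 310 and 297.4 CPM in EpiLCs, against 144.7, 140.1 and 146.9 CPM in mESCs. The ligand Fgf8 held 10.2, 7.91 and 8.14 CPM in EpiLCs, against 0.223, 0.625 and 0.223 CPM in mESCs. Fgf4, the ligand that mESCs make themselves, was nearly level, with 147.9, 149.2 and 140.8 CPM in EpiLCs and 161.2, 161.7 and 150.2 CPM in mESCs (log2 fold change -0.11 ± 0.05, adjusted p = 0.0433, edgeR). Fgf10 and Fgf17 fell by 5.31 and 2.08 on the log2 scale.

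In the Nodal and activin pathway 23 of 26 listed genes were tested, of which 12 rose and 7 fell. Lefty1, a secreted Nodal inhibitor and target, had 795.8, 797 and 823.3 CPM in mutant EpiLCs, against 55.6, 50.5 and 63.4 CPM in mutant mESCs, with every EpiLC library above every mESC library. Lefty2 averaged 416.8 CPM in EpiLCs and 283.4 CPM in mESCs, and Nodal averaged 105.7 CPM in EpiLCs and 71.6 CPM in mESCs, log2 fold changes of 0.56 for both. Inhbb, which encodes the subunit of activin B, was nearly lost, with 0.375, 0.122 and 0 CPM in EpiLCs, against 51.8, 55.5 and 62.5 CPM in mESCs (log2 fold change -8.18).

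Among BMP genes 6 were higher and 7 lower of 17 tested out of 23 listed. Over all genes the shares were 33.4% and 32.6%, so these counts say nothing particular of the list. By at least 2-fold 3 were higher and 5 lower, against 14.7% and 10.4% over all genes. Id3, a direct BMP target, held 1.22, 1.46 and 1.84 CPM in mutant EpiLCs, against 49.8, 55.7 and 44.7 CPM in mutant mESCs. The ligand Bmp4 held 1.41, 1.34 and 1.49 CPM in EpiLCs, against 37.3, 36.1 and 37.3 CPM in mESCs, and overlaps the predicted gene Gm15217. Id2, a close relative of Id3, was higher in EpiLCs, with 15.4, 18.8 and 16.9 CPM against 2.23, 2.29 and 1.45 CPM in mESCs, so Id2 and Id3 changed in opposite directions.

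WNT targets, of which 19 of 23 were tested, rose in 11 cases and fell in 6. Axin2, the general feedback target, stood at 15.3, 11.2 and 13.1 CPM in mutant EpiLCs, against 54.4, 46.0 and 51.6 CPM in mutant mESCs (log2 fold change -1.93). Sp5, Cdx1 and Notum fell by 4.40, 3.81 and 3.10 on the log2 scale, while Sp8 and the ligand Wnt3 rose by 4.15 and 2.94. Brachyury, listed as T, stood near 1 CPM in both states, with 0.938, 0.852 and 1.26 CPM in EpiLCs and 1.00, 1.35 and 0.780 CPM in mESCs (log2 fold change -0.05 ± 0.54, adjusted p = 0.942, edgeR).

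Of 17 LIF and STAT3 genes, 4 rose and 10 fell, 8 by at least 2-fold. Bcl3 and Socs3, 2 targets of STAT3, held means of 2.17 and 13.3 CPM in mutant EpiLCs, against 97.8 and 72.7 CPM in mutant mESCs. Stat3 itself stood at 26.4, 29.5 and 25.2 CPM in EpiLCs, against 179.3, 181.1 and 185.7 CPM in mESCs, and overlaps Stat5a. The LIF receptor gene Lifr was lower in every EpiLC library (29.2, 32.3 and 33.3 CPM, against 106.6, 105.1 and 108.8 CPM in mESCs). Gbx2, a homeobox gene counted among the STAT3 targets, was higher, with 202.1, 202.6 and 205.2 CPM in EpiLCs, against 45.4, 42.7 and 42.7 CPM in mESCs.

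**Figure D2:**
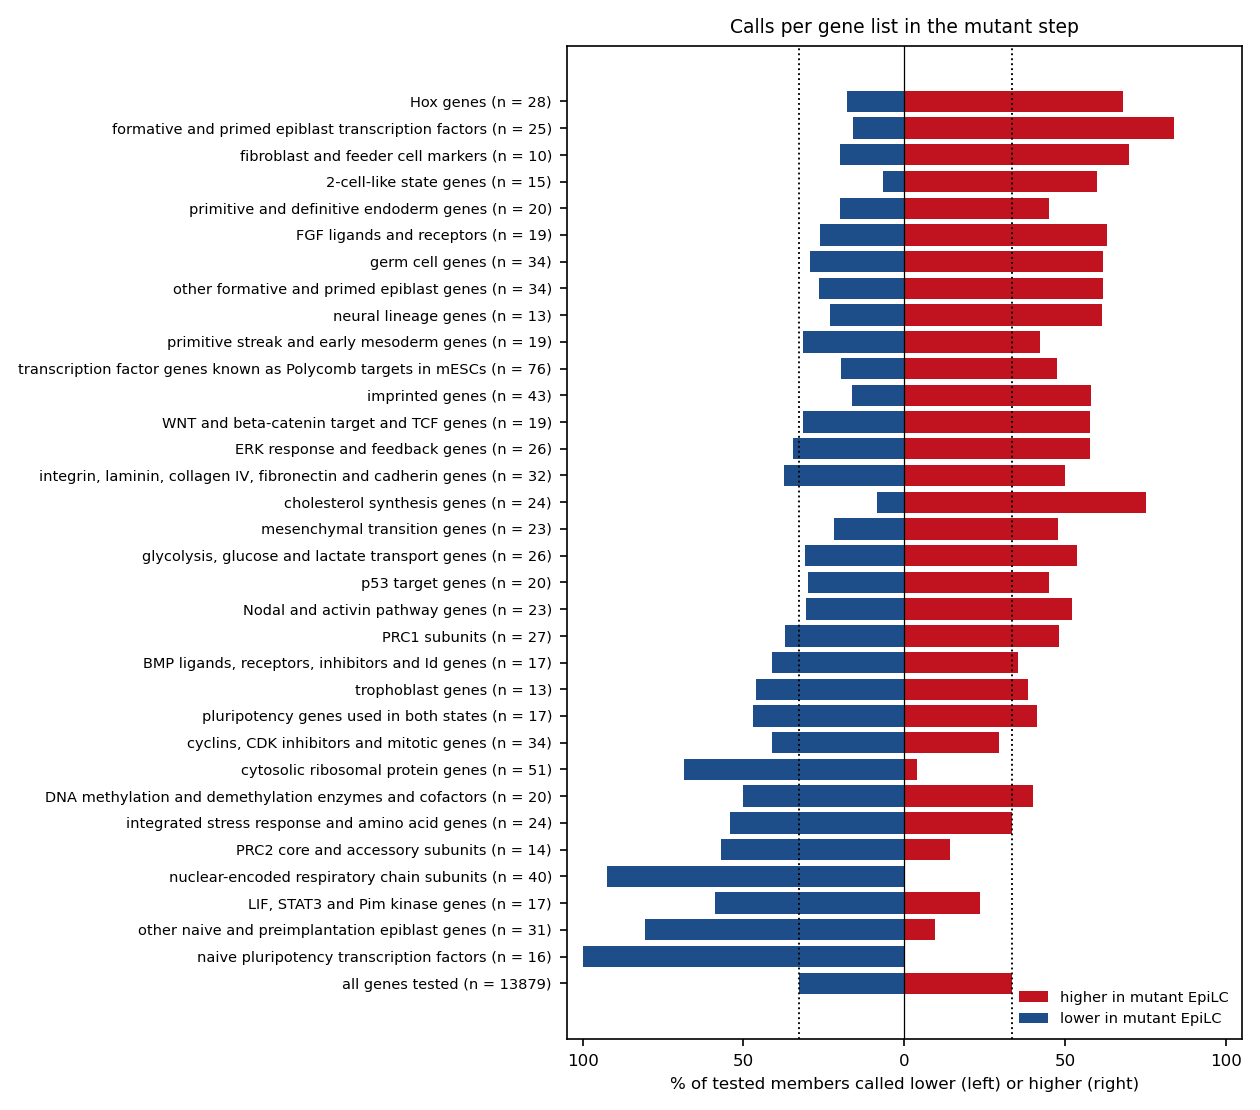
Share of tested members of each gene list that were called lower (left) or higher (right) in mutant EpiLCs against mutant mESCs, in percent, with lines at the shares over all tested genes (32.6% lower, 33.4% higher). Naive factors lie wholly on the lower side (16 of 16), oxidative phosphorylation genes nearly so (37 of 40), and formative factors (21 of 25) and Hox genes (19 of 28) mostly on the higher side.

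The Hox genes, homeodomain factors that pattern the body axis and classic Polycomb targets, held several of the largest rises by fitted log2 fold change. Of 39 listed, 28 were tested, 19 rose and 5 fell, and the median log2 fold change was 4.49. Without mutant EpiLC replicate 2 or mutant mESC replicate 3, 3 fell. With the 8 genes that had no count in 1 state set at their bound, the median was 4.19. Their summed level was 422.0 to 441.3 CPM in mutant EpiLCs and 55.25 to 61.48 CPM in mutant mESCs.

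The clusters differed. In the HoxA cluster all 10 tested genes rose, and the cluster summed to 290.6 to 308.0 CPM in mutant EpiLC libraries, against 11.70 to 15.93 CPM in mutant mESC libraries. Hoxa5 stood at 55.2, 60.6 and 56.9 CPM in EpiLCs, against 0, 0.729 and 0.111 CPM in mESCs, and Hoxa10 at 60.7, 60.7 and 62.4 CPM in EpiLCs, against 0.668, 1.15 and 0 CPM in mESCs. Hoxa9 held 18, 14.6 and 16.6 CPM in EpiLCs and no count in mESCs, so it was at least 152-fold higher, and it overlaps Mir196b. In the HoxB cluster 8 of 9 rose, with sums of 119.8 to 124.4 CPM in EpiLCs, against 11.46 to 14.26 CPM in mESCs. Hoxb1 was at least 209-fold and Hoxb3 at least 207-fold higher, both with no count in mESCs, while Hoxb9 stood at 13.7, 11.3 and 11.7 CPM in EpiLCs and 10.7, 12.7 and 13.4 CPM in mESCs, with overlapping groups.

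HoxC ran the other way. All 4 tested HoxC genes fell, and the cluster summed to 1.461 to 3.441 CPM in mutant EpiLCs, against 25.96 to 27.15 CPM in mutant mESCs. Hoxc13 held 0.750, 0.487 and 1.15 CPM in EpiLCs, against 17.5, 16.1 and 18.1 CPM in mESCs, and Hoxc12 had no count in EpiLCs and 5.12, 6.35 and 3.01 CPM in mESCs, at least 44.7-fold lower. HoxD stayed low, at 3.669 to 4.626 CPM in EpiLCs and 3.004 to 4.344 CPM in mESCs, with 1 gene higher (Hoxd13, log2 fold change 1.15), 1 lower and 3 not called among 5. In WT cells the HoxD sum was 21.96 to 22.38 CPM in EpiLCs and 23.77 to 30.70 CPM in mESCs, so all mutant libraries lay below all WT libraries in both states.

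**Figure D3:**
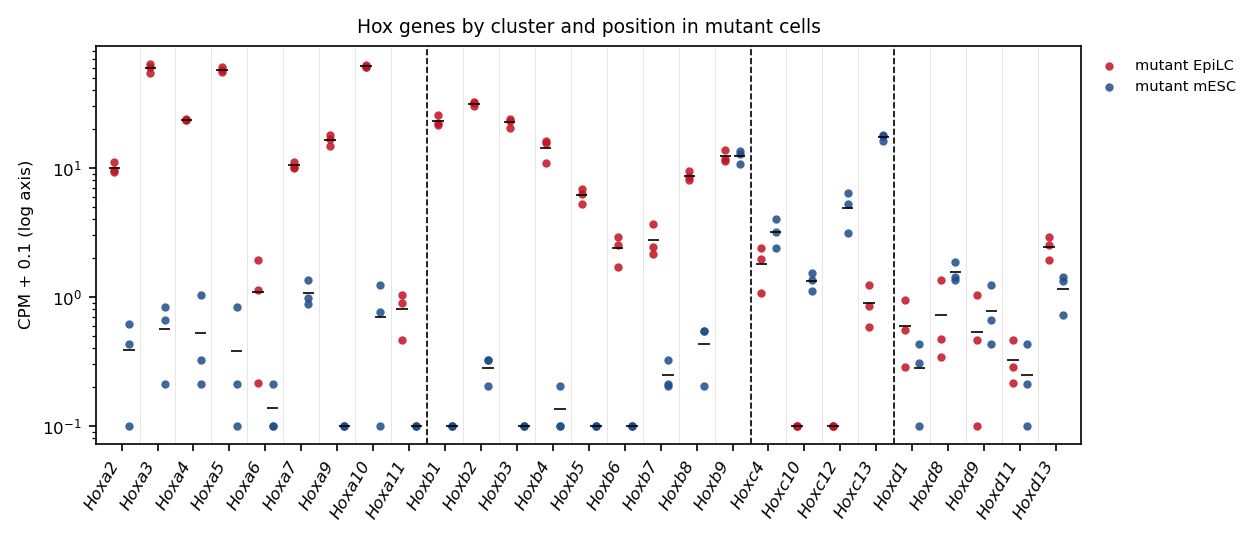
CPM on a log axis, with 0.1 added, of 27 of the tested Hox genes in mutant EpiLCs (left point of each pair) and mutant mESCs (right), ordered along the 4 clusters, with points for libraries, short lines for means and dashed lines between clusters. The HoxA genes and 8 of 9 HoxB genes are higher in mutant EpiLCs, the 4 HoxC genes are lower, and HoxD genes stay low in both states.

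Of 133 other developmental transcription factor genes known as Polycomb targets, 76 were tested, of which 36 were higher, 15 lower and 25 not called. Their median log2 fold change was 0.90, against 4.49 for the Hox genes, or 4.19 with Hox genes of no count in 1 state at their bound. Wt1, a zinc finger factor of kidney and gonad, stood at 59.7, 61.5 and 66.7 CPM in mutant EpiLCs, against 0.668, 0.937 and 0.446 CPM in mutant mESCs. Olig3 and Ebf1, both neural factors, rose by 5.87 and 4.03 on the log2 scale. The homeobox gene Gsx1 held 10.9, 17.0 and 13.5 CPM in EpiLCs, against 0, 0.104 and 0 CPM in mESCs, a ratio of 374 that rests on 1 count in mESCs.

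Genes of PRC2 itself mostly changed by less than 2-fold. Of 14 tested genes of the complex and its accessory proteins, 2 rose and 8 fell, and Eed and Epop were the 2 that fell by at least 2-fold. Eed, the subunit that reads the methyl mark, stood at 82.0, 89.4 and 82.2 CPM in mutant EpiLCs, against 197.4, 186.9 and 197.1 CPM in mutant mESCs (log2 fold change -1.20). The catalytic subunit gene Ezh2 had a log2 fold change of -0.23 and the scaffold Suz12 one of -0.42. The accessory gene Mtf2 fell by 0.76 on the log2 scale, while Jarid2, of the alternative PRC2 form, rose by 0.34. Among 27 genes of Polycomb repressive complex 1, 13 rose and 10 fell. Kdm2b, which brings that complex to CG-rich DNA, held 230.3, 210 and 212.5 CPM in EpiLCs, against 91.4, 84.0 and 83.3 CPM in mESCs, and Phc1 rose by 1.02 on the log2 scale.

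Imprinted genes, expressed from 1 parental allele, rose more often than they fell. Of 51 listed, 43 were tested, 25 rose (14 by at least 2-fold) and 7 fell, with a median log2 fold change of 0.59. Peg10, a retrotransposon-derived gene of placenta, held 2073, 1992 and 2096 CPM in mutant EpiLCs, against 35.6, 28.3 and 33.1 CPM in mutant mESCs. Cdkn1c, a cyclin-dependent kinase inhibitor, held 169.5, 168.2 and 159.6 CPM in EpiLCs, against 3.23, 3.23 and 2.56 CPM in mESCs. Both genes stood apart in every library, at log2 fold changes of 5.99 and 5.78. Dlk1, Igf2 and Mest rose by 4.64, 3.46 and 2.22 on the log2 scale. Plagl1, a zinc finger factor, fell by 3.42, and H19, a non-coding RNA, had no count in any of the 6 mutant libraries, while it held 7.61 ± 0.62 CPM in WT EpiLCs and 0.155 ± 0.089 CPM in WT mESCs (SD, n = 3 each).

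Genes of lineages beyond the epiblast were called in both directions. Over all genes 33.4% were higher and 32.6% lower, or 14.7% and 10.4% by at least 2-fold. By at least 2-fold, 8 of 19 streak genes were higher and 5 lower. For endoderm these were 9 and 4 of 20, and for trophoblast 5 and 5 of 13. Each of these lists thus had a larger share of 2-fold calls than all genes. Of 13 early neural genes tested (24 listed), 8 rose and 3 fell. Sox1, the first marker of neural commitment, stood at 243, 211.1 and 237.4 CPM in mutant EpiLCs, against 7.23, 7.39 and 8.47 CPM in mutant mESCs, whereas the neuronal tubulin Tubb3 fell by 2.35 on the log2 scale. Of 19 primitive streak genes tested (24 listed), 8 rose and 6 fell: Eomes, which starts the streak, held 9.095, 8.399 and 11.58 CPM in EpiLCs, against 29.3, 30.9 and 34.4 CPM in mESCs, and Gsc fell by 4.24. The summed level of the streak list was lower in EpiLCs, at 60.56 to 62.85 CPM, against 110.9 to 126.3 CPM in mESCs. Of 20 endoderm genes tested (26 listed), 9 rose and 4 fell, with Lrp2, an endocytic receptor of visceral endoderm, at 460.9, 402.7 and 443.9 CPM in EpiLCs, against 30.3, 33.4 and 30.3 CPM in mESCs. Sox17 was near the floor in both states (0.374 CPM in EpiLCs and 0.362 CPM in mESCs). Of 13 trophoblast genes tested (20 listed), 5 rose and 6 fell, and Tfap2c held 3.19, 3.53 and 2.29 CPM in EpiLCs, against 62.4, 62.7 and 69.6 CPM in mESCs.

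Germline genes rose in 21 and fell in 10 of 34 tested (39 listed), against 33.4% higher and 32.6% lower over all genes. Their summed level was lower in mutant EpiLCs, at 485.5 to 491.6 CPM, against 911.2 to 939.5 CPM in mutant mESCs. Those that rose included Ctcfl, the testis relative of CTCF, Tdrd1 and Tdrkh of the piRNA pathway, with log2 fold changes of 4.11, 3.02 and 2.80. Those that fell included the receptor gene Kit, at 40.6, 40.1 and 47.5 CPM in mutant EpiLCs, against 338.2, 324.7 and 337.1 CPM in mutant mESCs, and Prdm1, a specifier of primordial germ cells, at a log2 fold change of -3.03. Kit alone made up most of the fall in the germline sum. Genes of the 2-cell-like state, a rare state of mESC cultures, rose in 9 and fell in 1 of 15 tested (23 listed), while their summed level was lower in mutant EpiLCs, at 219.2 to 228.1 CPM, against 248.2 to 263.0 CPM in mutant mESCs. The gene that fell was Eif1a, a translation initiation factor gene, at 168, 176 and 182 CPM in EpiLCs, against 248, 231 and 234 CPM in mESCs. Eif1a made up most of the sum in both states and fell by more than the sum did. The other members of the list together were therefore higher in mutant EpiLCs. Among the rises, Zscan4d stood at 8.35, 6.70 and 7.57 CPM in EpiLCs, against 3.00, 2.92 and 2.12 CPM in mESCs. Zscan4 and Usp17l genes have near-identical copies among which counting may have divided reads.

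Markers of other cells that a culture could hold were summed. Fibroblast markers totalled 70.91 to 85.90 CPM in mutant EpiLCs and 39.58 to 48.79 CPM in mutant mESCs, and of 10 tested (16 listed) 7 rose and 2 fell (1 by DESeq2, by limma-voom, with a replicate block, and without replicate 2 of either state or EpiLC replicate 3). Col1a1 stood at 1.59, 2.68 and 1.61 CPM in EpiLCs and 1.00, 1.77 and 1.11 CPM in mESCs, with overlapping groups, and Dcn held 1.97, 2.44 and 1.38 CPM in EpiLCs and no count in mESCs (at least 17.6-fold higher). Of the 15 fibroblast markers in the table, 1 had no count in EpiLCs and 6 had none in mESCs. Trophoblast markers totalled 128.8 to 136.5 CPM in EpiLCs and 316.5 to 325.1 CPM in mESCs, and endoderm markers 934.9 to 1007 CPM in EpiLCs and 801.2 to 841.8 CPM in mESCs. The endoderm sum rose by less than its member Lrp2 did alone, so the remaining endoderm markers together were lower in mutant EpiLCs. The part of other cell types in the changes above was not tested.

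Adhesion genes changed in both directions. Of 32 tested out of 41 listed, 16 rose and 12 fell. Cdh2, which encodes N-cadherin, stood at 56.5, 58.3 and 54.7 CPM in mutant EpiLCs, against 3.34, 4.17 and 1.89 CPM in mutant mESCs. Cdh1, which encodes E-cadherin, stood at 456.6, 439.1 and 437.8 CPM in EpiLCs, against 902.2, 875 and 886.2 CPM in mESCs, and the gene fell with an adjusted p of 2.74e-52 (edgeR). N-cadherin transcripts were thus higher and E-cadherin transcripts lower in every EpiLC library, with no overlap. The basement membrane genes Lama1, a laminin chain, and Nid1, a nidogen, fell by 3.73 and 3.48 on the log2 scale. Fibronectin (Fn1) also fell, to 423.4, 339.6 and 409.6 CPM in EpiLCs, against 1295, 1241 and 1297 CPM in mESCs, and it overlaps Apol7d.

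Of 23 genes of the epithelial to mesenchymal transition tested, 11 rose and 5 fell. Zeb2, a repressor of E-cadherin, stood at 24.9, 23.9 and 22.5 CPM in mutant EpiLCs, against 1.78, 0.937 and 0.891 CPM in mutant mESCs. Grhl2, which maintains epithelia, rose as well, by 3.52 on the log2 scale, whereas the mesenchymal filament gene Vim fell, to 173.7, 182.2 and 175.8 CPM in EpiLCs, against 448, 430 and 428 CPM in mESCs. The epithelial keratin gene Krt8 and the tight junction gene Cldn4 fell by 2.23 and 2.68 on the log2 scale.

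Genes of energy metabolism shifted. Of 40 nuclear genes of oxidative phosphorylation, 0 rose and 37 fell, 2 of them by at least 2-fold, with a median log2 fold change of -0.42. Sdhb, of complex II, stood at 82.0, 84.5 and 81.8 CPM in mutant EpiLCs, against 174.8, 174.4 and 167.2 CPM in mutant mESCs, and Cox7a1 fell by 1.34 on the log2 scale. Glycolysis genes were more mixed, with 14 higher and 8 lower of 26. The lactate exporter Slc16a3 stood at 188.1, 182.3 and 167.5 CPM in EpiLCs, against 14.5, 17.2 and 16.3 CPM in mESCs, and the glucose transporter Slc2a1 at 568, 549.4 and 547.2 CPM in EpiLCs, against 157.2, 154.4 and 157.6 CPM in mESCs. Pfkp and Hk1, enzymes of the first steps of glycolysis, fell by 2.59 and 1.80 on the log2 scale. Both of these transporter genes were higher and both of these enzyme genes lower in every EpiLC library.

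Cholesterol synthesis genes rose in 18 and fell in 2 of 24, mostly by less than 2-fold, for example Hmgcs1 with 921.2, 958.4 and 908.2 CPM in mutant EpiLCs, against 485.9, 474.3 and 477.4 CPM in mutant mESCs. Ribosomal protein genes fell in 35 and rose in 2 of 51, with a median log2 fold change of -0.12. With relative log expression scaling 32 fell, and with no composition scaling 26 fell. With no filter on low counts 1 rose, as also without mutant EpiLC replicate 2 or mutant mESC replicate 1 or 2. Genes of the integrated stress response fell in 13 and rose in 8 of 24, with Nupr1 lower (log2 fold change -2.54) and Ddit4 higher (1.56). Cell cycle genes rose in 10 and fell in 14 of 34, near the shares over all genes, with Ccnd2 higher and Ccnd3 lower by log2 fold changes of 1.92 and -1.27, and Mki67, the proliferation marker, at 0.02. Of 20 p53 targets 9 rose and 6 fell, and Cdkn1a, the p53-induced kinase inhibitor, held 125.8, 114.3 and 112.6 CPM in EpiLCs, against 170.9, 174.9 and 173.7 CPM in mESCs.

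By fitted log2 fold change, the largest single rises were in genes with no count or 1 count in mutant mESCs. Where no count was found only a bound is measured, which does not rank a gene above rises between counted levels. Cnr1, the cannabinoid receptor of neurons, held 23.2, 27.3 and 29.1 CPM in mutant EpiLCs and no count in mutant mESCs, at least 241-fold higher. Ndnf, a secreted neurotrophic factor, held 67.0, 72.2 and 73.3 CPM in EpiLCs, against 0, 0 and 0.111 CPM in mESCs, a ratio of 1940 with a 95% counting interval of 348 to 76800, since mESCs gave 1 count. Cxcl12, a chemokine, held 28.1, 23.6 and 29.1 CPM in EpiLCs, against 0.111, 0 and 0 CPM in mESCs (ratio 747, 95% counting interval 134 to 29500). Gpm6a, Car4, Jakmip2, Pcdh18 and Pde4b also had no count in mESCs, with bounds of 79.2-fold to 155-fold.

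By fitted log2 fold change, several of the largest falls ended in no count. Only a bound is measured for such a gene, which does not rank it above falls between counted levels. The ETS factor gene Spic had no count in mutant EpiLCs, at least 56.4-fold lower than the 4.12 to 7.18 CPM of mutant mESCs. Osm, a cytokine of the LIF family, was at least 44.4-fold lower. The junction gene Jam2 held 0.656, 0.974 and 0.459 CPM in EpiLCs, against 191.9, 185.7 and 167.7 CPM in mESCs. The genes of highest CPM changed little in comparison. Eef1a1, the elongation factor, averaged 11690 CPM in EpiLCs and 10700 CPM in mESCs, and Hsp90ab1, a chaperone, averaged 6355 CPM in EpiLCs and 6568 CPM in mESCs (adjusted p = 0.133, edgeR).

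Whether the mutant step differed from the WT step was tested for each gene as the difference of the 2 log2 fold changes, mutant minus WT. In WT cells 8697 genes were called (62.7%), with 1604 higher (11.6%) and 1325 lower (9.55%) by at least 2-fold. Of the calls, 7446 were shared, which was 81.3% of the mutant calls and 85.6% of the WT calls, and 7395 of them had the same sign. Across all tested genes the log2 fold changes of the steps had r = 0.919 and rho = 0.895 with a slope of 1.09, and across the 10790 genes of at least 5 CPM r was 0.955 with a slope of 1.11. Genes are not independent replicates, and the 2 steps share no library.

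**Figure D4:**
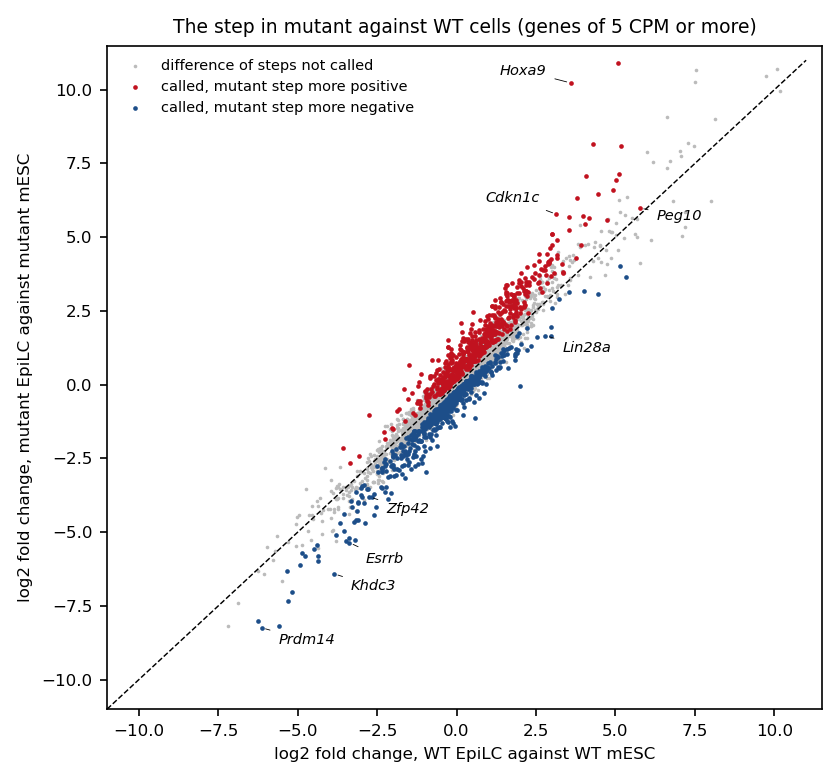
Log2 fold change of EpiLCs against mESCs in mutant cells (vertical axis) and in WT cells (horizontal axis) for 10790 genes of at least 5 CPM, with genes whose steps differed at an adjusted p under 0.05 in red (mutant step more positive) or blue (more negative) and the line of equal change dashed. The points have a slope of 1.11, and Esrrb and Zfp42 lie below the line.

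The difference itself passed the test for 1351 genes (9.73%), positive for 650 (4.68%) and negative for 701 (5.05%). The shares of 4.68% and 5.05% are the background for the counts of differences in each gene list below. The balance turned to 749 positive and 581 negative with no composition scaling, and to 596 and 537 without WT EpiLC replicate 2. It was at least 2-fold for 339 genes (2.44%), 239 positive (1.72%) and 100 negative (0.721%). Of the 1351, the change was larger in mutant than in WT cells for 1028 and smaller for 323, and of the 339 it was larger in mutant cells for 297. These counts describe the called genes only.

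Naive factors often went further down in mutant cells: for 12 of 16 the difference was negative and for 0 positive. Esrrb had a difference of -1.98, Tbx3 of -1.61, Nr0b1 of -1.45, Zfp42 of -1.05 and Tfcp2l1 of -1.03, all past the test. For Nanog (-0.05, adjusted p = 0.659, edgeR), Nr5a2 (-0.04, adjusted p = 0.963) and Tdh (-0.19, adjusted p = 0.399) no difference was detected. Among core genes the Sox2 difference was -0.25 (adjusted p = 0.00748) and that of Pou5f1 0.10 (adjusted p = 0.176).

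Formative genes showed differences of both signs, 5 positive and 6 negative of the 25 factors. Pou3f1 and Sox3 rose more in mutant cells, by 1.49 and 1.12 on the log2 scale. Myc, Utf1, Lin28a and Dnmt3l rose less, with differences of -1.01, -0.77, -1.13 and -1.37. Lin28a reached 485.2 to 507.8 CPM in mutant EpiLCs and 385.0 ± 21.9 CPM in WT EpiLCs (SD, n = 3), and its mESC level was 154.3 to 161.1 CPM in mutant and 55.5 ± 4.74 CPM in WT cells, so the smaller rise went with a higher start. For Otx2, Dnmt3a and Lef1 the differences were 0.14, 0.11 and 0.89 (adjusted p = 0.871, 0.381 and 0.141, edgeR). Tet1 and Tet2 fell further in mutant cells (-0.62 and -0.87) and Tet3 rose further (1.01).

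Signal genes with a difference included Spry4 (-1.32), Fgf8 (3.09), Bmp4 (-1.82) and Id2 (1.52). For Dusp6 it was -0.33 and for Gbx2 -0.03 (adjusted p = 0.907, edgeR). Sox1 rose further in mutant cells (1.73), with 174.0 ± 4.09 CPM in WT EpiLCs and 19.04 ± 3.776 CPM in WT mESCs (SD, n = 3 each). Gata6, a primitive endoderm factor, stood at 1.59, 1.10 and 0.688 CPM in mutant EpiLCs and 0.556, 0.312 and 0.780 CPM in mutant mESCs (log2 fold change 1.06, adjusted p = 0.0556), against 13.9 ± 2.57 CPM in WT EpiLCs and 0.659 ± 0.585 CPM in WT mESCs, and its difference was -3.29. Its mutant rise passed the test without mutant EpiLC replicate 3 (log2 fold change 1.31) or mutant mESC replicate 3 (1.39).

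Among Hox genes the difference was positive for 6 of 28 and negative for 0, against 4.68% and 5.05% over all genes. Of the 6, 5 were in HoxA. The median log2 fold change was 4.49 in mutant and 3.21 in WT cells. With genes of no count in 1 state at their bound, the mutant median was 4.19. Of 39 Hox genes in the count table, 9 had no count in mutant mESCs and 3 had none in WT mESCs. The WT median was not recomputed with bounds, so the gap between the medians is uncertain. Hoxa3, Hoxa7 and Hoxa10 had differences of 1.94, 1.83 and 1.67. Imprinted genes had a positive difference in 11 and a negative one in 1 of 43, against the same 4.68% and 5.05% over all genes. Cdkn1c reached 159.6 to 169.5 CPM in mutant EpiLCs and 17.4 ± 0.524 CPM in WT EpiLCs (SD, n = 3), with a difference of 2.63 (adjusted p = 8.9e-13, edgeR). Igf2r, a receptor that clears IGF2, rose to 144.5, 133.8 and 135.7 CPM in mutant EpiLCs, against 71.1, 73.7 and 75.4 CPM in mutant mESCs, while WT EpiLCs held 113.1 ± 0.433 CPM and WT mESCs 130.1 ± 15.5 CPM, a difference of 1.12. Of 40 oxidative phosphorylation genes none had a called difference in either direction in the edgeR fit.

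The 8 largest positive differences included 6 genes with no count in mutant mESCs. Cnr1 averaged 26.5 CPM in mutant EpiLCs with no count in mutant mESCs, against 16.6 CPM in WT EpiLCs and 0.496 CPM in WT mESCs, and Hoxa9, Fat3, Fgf5, Jakmip2 and Kcna3 shared that pattern. Their mean levels in WT mESCs were 0.267 to 0.901 CPM, so the fitted difference of such a gene depends on the prior count and bounds nothing. Fgf8 was counted in all 12 libraries, with a mean of 8.76 CPM in mutant EpiLCs and 0.357 CPM in mutant mESCs, against 2.70 CPM in WT EpiLCs and 0.989 CPM in WT mESCs. On the negative side, Inhbb, Khdc3, Prdm14, Ccdc141 and Slc15a1 fell in both steps and further in mutant cells. Mutant EpiLCs gave few counts for Inhbb, Prdm14 and Slc15a1, so the sizes of their differences are uncertain. Without mutant EpiLC replicate 1 the differences of Prdm14, Ccdc141 and Slc15a1 were -2.37, -1.71 and -1.63 and no longer passed the test. The Prdm14 difference was also not called by DESeq2 or limma-voom, nor that of Slc15a1 by limma-voom. Slc15a1, a peptide transporter gene, averaged 0.229 CPM in mutant EpiLCs and 37.7 CPM in mutant mESCs, against 1.24 CPM in WT EpiLCs and 48.3 CPM in WT mESCs. Robo4, a receptor of endothelial cells, averaged 6.49 CPM in mutant EpiLCs and 6.67 CPM in mutant mESCs, against 18.2 CPM in WT EpiLCs and 4.51 CPM in WT mESCs, so its rise was seen in WT cells and not detected in mutant cells.

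**Figure D5:**
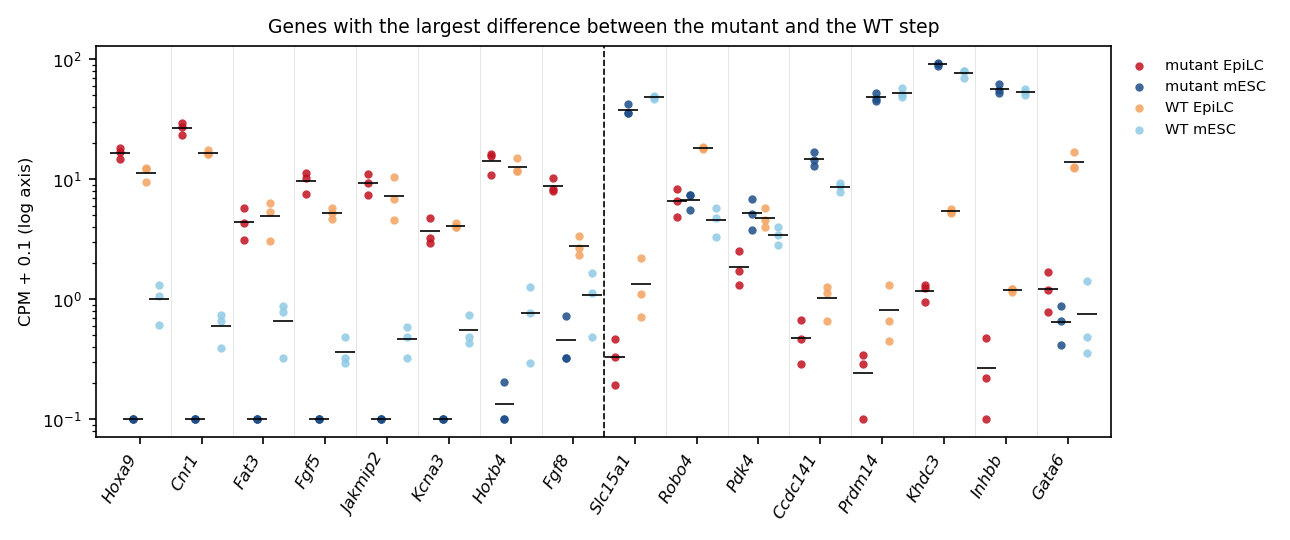
CPM on a log axis, with 0.1 added, for the 8 largest positive (left of the dashed line) and 8 largest negative differences between the mutant and the WT step, with each gene's libraries in the order mutant EpiLC, mutant mESC, WT EpiLC, WT mESC and short lines for means. For Fgf8 the mutant EpiLC mean of 8.76 CPM stands above the WT EpiLC mean of 2.70 CPM, and for Gata6 the WT EpiLC mean of 13.9 CPM stands above those of the other groups.

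Of the genes called in both steps, 51 had opposite signs. The following were chosen after their values were seen. Fignl2, a fidgetin-like gene, averaged 21.02 ± 1.886 CPM in mutant EpiLCs and 12.0 ± 2.01 CPM in mutant mESCs, against 18.6 ± 3.21 CPM in WT EpiLCs and 31.4 ± 1.42 CPM in WT mESCs (SD, n = 3 each), so it rose in mutant and fell in WT cells. Enox1 fell by 1.15 on the log2 scale in mutant cells and rose by 0.58 in WT cells, with a difference of -1.73 (adjusted p = 1.8e-15, edgeR), and it overlaps Gm6994.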

How the data were processed

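Total RNA was sequenced from 12 libraries in 4 groups of 3, by genotype and state. The analysis started from the deposited count of reads for every gene, not normalized. The submitters' processing notes name the build mm10 and the tools edgeR 3.18.1, featureCounts (Subread), STAR 2.5.3a and FastQC 0.11.2. The sources used here do not say if reads were counted by strand, and reads shared by overlapping genes are therefore uncertain. The authors' deposited CPM columns are a score scaled to effective library sizes and were only compared with the counts. The authors' deposited TPM columns were used for the levels of Pou5f1 and Sox2 per transcript length. List sums and the choice of the most abundant genes used CPM, which does not divide by transcript length. In the authors' deposited table the log2 fold changes and p-values of the mutant step call 9931 genes, 8969 of them also called here (98.0% of the calls here, 90.3% of theirs).

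The 26 features that carry dates in place of symbols, of 19656 in the table, took 0.182 to 0.212% of the counts per library and were dropped. GENCODE M21 (GRCm38) annotated 18587 symbols directly, 783 through a synonym and 260 not at all. Genes were kept with filterByExpr, given TMM factors (0.984 to 1.01) and fitted in R 4.3.3 by edgeR 4.0.16 (quasi-likelihood), with 1 fit of 4 group means to all 12 libraries, 8 residual degrees of freedom and a biological coefficient of variation of 4.57%. P-values were adjusted by Benjamini-Hochberg across the 13879 tested genes and called under 0.05. Each SE is the absolute fitted value divided by the square root of the F statistic of its test. That is approximate and can be too small where 1 state has few counts. Where a group had no count, 3 counts were put in the place of that group's total to bound the fold. Intervals and floors cover counting error only. Chi-square per degree of freedom between replicates was 1.90 to 2.92, above sampling noise, so none was a copy. Overlaps and promoter windows came from bedtools 2.31.1, Python 3.11.15 and pandas 2.3.3. The fits were also run on simulated counts drawn with the spread that this same fit had estimated, which cannot check that spread.

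The members and the 33 gene lists were chosen with earlier results of these data known. Named genes are Epop, 18 state genes and the 12 largest rises and falls by fitted log2 fold change. Others were drawn from the 3 largest rises and falls of each list, members whose role needed description and the 8 largest differences each way. The 5 genes of highest CPM in each state were drawn on as well. Not every gene of these sets is given. Alternatives were relative log expression factors, no TMM, no filter, at least 1 CPM in 3 libraries, DESeq2 1.42.0, limma-voom (limma 3.58.1), a replicate block, the mutant libraries alone, glmTreat and leaving out each library. Results for some genes are not reported here.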

Additional observations from a re-analysis of the deposited data

Results flagged for a closer look

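For the genes below the step from mESC to EpiLC differed between mutant and WT cells by the test of the difference itself (edgeR, adjusted p under 0.05). Each value is the mutant minus the WT log2 fold change. Among genes of the largest positive differences it was 6.64 for Hoxa9, 5.84 for Cnr1, 5.23 for Fat3, 5.23 for Fgf5, 5.14 for Jakmip2, 4.92 for Kcna3 and 3.85 for Hoxb4. Mutant mESCs gave 0 or 1 count for these 7 genes, so their fitted values depend on the prior count. Fgf8, counted in all groups, had 3.09.

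Negative differences were -3.29 for Gata6, -2.60 for Inhbb, -2.55 for Khdc3 and -2.10 for Prdm14. They were -2.07 for Ccdc141, -2.07 for Pdk4, -2.05 for Slc15a1 and -2.02 for Robo4. Mutant EpiLCs gave few counts for Inhbb, Prdm14 and Slc15a1, so the sizes of these values are uncertain. Pdk4, a kinase that restrains pyruvate use, fell in mutant cells (log2 fold change -1.56) and had a value of 0.51 in WT cells that did not pass the test.

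Among state genes the naive factors had differences of -1.98 (Esrrb), -1.61 (Tbx3), -1.05 (Zfp42), -1.03 (Tfcp2l1), -0.84 (Klf4) and -0.49 (Klf2), and Sox2 had -0.25. Pou3f1 had 1.49, Sall2 0.60, Dnmt3b 0.32 and Dnmt3l -1.37.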

How the results depend on the processing

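No recomputed named gene whose change passed the test changed sign under the settings tried, while the uncalled mutant step of Robo4 and the uncalled difference of Otx2 did. The balance of higher and lower calls in the mutant step turned without mutant mESC replicate 1 (4371 higher, 4444 lower). That of the differences turned with no TMM (749 positive, 581 negative) and without WT EpiLC replicate 2 (596 positive, 537 negative). Against the 9155 genes called in the mutant step, glmTreat, which tests for a change beyond 2-fold, called 2428, 1444 higher and 984 lower. Leaving out each mutant library in turn gave 8655 to 8815 calls in the mutant step (4355 to 4441 higher, 4251 to 4444 lower). By at least 2-fold, 2004 to 2071 were higher and 1436 to 1496 lower. The mutant step was not recounted without a WT library. Leaving out each mutant or WT library in turn gave 1133 to 1341 called differences (549 to 623 positive, 537 to 720 negative). The correlation of the mutant and WT steps was 0.903 to 0.910 without 1 library, against 0.919 with all. The filter on low counts was run again in each fit without a library, so the genes tested could differ too. The values without a library therefore do not show the effect of that library alone. DESeq2 called 8784 genes and limma-voom 9161 in the mutant step. With a replicate block 9150 genes were called in the mutant step and 1401 differences. Same-numbered EpiLC and mESC libraries had deviations correlated at -0.044 to 0.016, so no effect shared by replicate number was detected. Libraries from paired cultures with small culture effects could give the same values, so pairing is not settled.

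Among named genes the step call was lost in 14 recomputed tests of 4 genes (Thy1, Dppa2, Slc7a11 and Rps12) and gained in 6 of 3 genes (Gata6, Hsp90ab1 and Rn45s). The call of the difference was lost in 11 recomputed tests of 4 genes and gained in 1, for Lef1. For the difference, Prdm14 was not called by DESeq2 (-2.20) or limma-voom (-1.99), nor without mutant EpiLC replicate 1 (-2.37) or 3 (-1.59), mutant mESC replicate 1 (-2.03) or WT EpiLC replicate 2 (-1.43). Slc15a1 was not called by limma-voom (-1.81) or without mutant EpiLC replicate 1 (-1.63) or WT EpiLC replicate 3 (-1.46), Ccdc141 was not called without mutant EpiLC replicate 1 (-1.71), and Kcna3 was not called without mutant mESC replicate 2 (4.91). The cause was not tested. At 7714164 to 10652151 counts a library, genes near 1 CPM rest on about 10 counts, where small changes could not be resolved.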
